A study of Mus musculus with 12 samples.

Results

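Transcripts of 8 genes that encode poly(A)-binding proteins or regulators of these proteins were followed through the oocyte-to-embryo transition in mice with and without Pabpn1l. The genes were Pabpn1l and Pabpn1 (nuclear-type poly(A)-binding proteins), Pabpc1, Pabpc1l and Pabpc4 (cytoplasmic-type) and Paip1, Paip2 and Paip2b (proteins that bind the cytoplasmic type). They were chosen by gene symbol, and all 8 were found among the 11298 genes of the deposited table. The libraries were C57BL/6 germinal vesicle (GV) oocytes, 1-cell embryos and 2-cell embryos, either wild type (Pabpn1l-WT, WT) or Pabpn1l knockout (Pabpn1l-KO, KO). Each of these 6 groups held 2 libraries of 10 oocytes or embryos, made by the full-length, oligo-dT-primed method Smart-seq2; oocytes were taken in vivo and embryos were cultured in KSOM medium. The labels give neither the deleted part of Pabpn1l, nor the mating, nor whether KO names the genotype of the mother or of the embryo. Nor do they say that the 2 libraries of a group are from different animals, and the p-values therefore measure no more than a spread between samples that may be technical.

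A poly(A) tail is coated by poly(A)-binding proteins, which in the nucleus help to lengthen the tail and in the cytoplasm join it to the translation machinery and to deadenylases. Cytoplasmic poly(A)-binding protein contacts the cap-binding complex eIF4F; PAIP1 promotes this step, and PAIP2 and its relative PAIP2B compete with it and repress translation. Oocytes carry their own forms of these proteins: PABPC1L, also called ePAB, is the main cytoplasmic form before the embryonic genome is switched on, after which PABPC1 takes over. PABPN1L, also called ePABP2, is the oocyte and early embryo relative of PABPN1 and is known as an adaptor that brings the deadenylase partner BTG4 to maternal mRNAs during their clearance.

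The sequence just upstream of the start is shown for Pabpn1l and Pabpc1l, the oocyte forms that were high at GV and near the lowest reported level in WT 2-cell embryos, and for Pabpn1, the general nuclear form that was higher in WT than in KO 2-cell embryos. Each line is the 250 bases before the RefSeq start, 5′ to 3′ on the gene's strand, with CpG in capitals. The windows, in build GRCm38.p6, were chr8:122622736-122622985 (minus strand) for Pabpn1l, chr2:164024974-164025223 (plus strand) for Pabpc1l and chr14:54893893-54894142 (plus strand) for Pabpn1.
Pabpn1l: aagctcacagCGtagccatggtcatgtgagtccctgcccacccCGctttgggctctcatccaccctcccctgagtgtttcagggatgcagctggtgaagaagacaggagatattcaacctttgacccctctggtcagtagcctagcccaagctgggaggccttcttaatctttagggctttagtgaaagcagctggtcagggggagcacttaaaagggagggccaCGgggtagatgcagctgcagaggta
Pabpc1l: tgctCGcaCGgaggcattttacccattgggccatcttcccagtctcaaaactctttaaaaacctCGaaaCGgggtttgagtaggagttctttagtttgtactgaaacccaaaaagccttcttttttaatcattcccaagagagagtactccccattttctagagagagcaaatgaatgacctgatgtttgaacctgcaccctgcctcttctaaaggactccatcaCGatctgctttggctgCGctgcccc
Pabpn1: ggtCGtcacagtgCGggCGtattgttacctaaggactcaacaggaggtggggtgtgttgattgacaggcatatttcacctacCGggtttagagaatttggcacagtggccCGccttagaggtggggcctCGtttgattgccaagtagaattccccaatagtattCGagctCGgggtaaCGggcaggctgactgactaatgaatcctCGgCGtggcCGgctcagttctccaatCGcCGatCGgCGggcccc
The Pabpn1l window held 3 CpG and the Pabpc1l window 6, against 16 in Pabpn1 and a median of 6 over 32841 windows of the same length. On both strands, the motif GGGCGG, the motif CCAAT and the motif TATAAA were searched for, and none was found in the Pabpn1l window, while CCAAT occurred at 1 position for Pabpc1l and 2 for Pabpn1. At least 1 GGGCGG was present in 32.7% of all windows, at least 1 CCAAT in 33.9% and at least 1 TATAAA in 12.4%. These matches describe letters only.

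The last 30 bases of the annotated transcript (GENCODE, build GRCm38) are shown for the oocyte forms Pabpn1l and Pabpc1l beside Pabpc1 and Paip2b, because the proteins in question act at this end of an mRNA. The cleavage and polyadenylation hexamer is in capitals.
Pabpn1l: aatgtaaattATTAAActtgaatatatttt
Pabpc1l: ctttatatATTAAAaaatgctgcaaaaatc
Pabpc1: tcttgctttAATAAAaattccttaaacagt
Paip2b: atccaaccaaacAATAAAgctgactgcata
Both oocyte forms ended with the variant hexamer ATTAAA, and Pabpc1 and Paip2b with AATAAA. Of the members not shown, Pabpc4 and Paip2 held AATAAA and Pabpn1 and Paip1 neither hexamer. Over 45049 transcripts, the last 30 bases held AATAAA in 43.9%, ATTAAA without AATAAA in 10.4% and neither in 45.6%. Annotated ends may differ from those used in oocytes, which these data do not resolve. The deposited values themselves were made on build mm9, and no coordinate was carried over from it.

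Values are FPKM, fragments per kilobase of transcript scaled to the mapped fragments of a library, so levels can be compared between genes within a library; the number of reads behind them is unknown. No value was below 1 FPKM, called the floor here: a value of 1 says only that a level was not above it, and a fold that involves such a group has no fixed size. In the 8 embryo libraries every value above the floor was an FPKM of 6 significant digits multiplied by 1 factor per library (the last digit was whole within 0.01). The factor was 0.116 to 0.1303 over the 4 2-cell libraries; at 1-cell KO had the larger factors (0.432 and 0.552) and WT the smaller (0.269 and 0.212). The power of 10 of each factor was set so that column totals came nearest those of the oocytes, whose factor was 1, and the basis of the factor is not given in the sources used here. The shift between the genotypes at 1-cell moved with the factor: the median KO to WT difference of 6227 genes with all 4 values over the floor was 1.05 on the log2 scale (2.08-fold) as deposited and 0.02 before the factor. At 2-cell the same medians were 0.13 and 0.05 over 3949 genes. These medians are of the log2 ratio of group means, without the 1 FPKM that the fits below add to each value. Each comparison below was therefore made on both scales, the deposited one first. In a pool of 10 oocytes or embryos, fewer cells that hold a transcript and less RNA per cell cannot be told apart. Because the libraries were primed with oligo-dT, a level may also depend on the poly(A) tail. A change of tail and a change of RNA amount cannot be told apart here, so falls and rises are those of measured levels. All 10 oocyte markers listed were in the table and summed to between 12183 and 13191 FPKM in the GV libraries. Of 12 cumulus and granulosa markers, 5 were in the table, with sums of 75.6 to 87.9 FPKM at GV and 5.14 to 5.65 FPKM at 2-cell, the last little above the 5 FPKM that 5 genes at the floor would give.

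Pabpn1l, the deleted gene, was measured first. In GV oocytes it was at 220.1 and 204 FPKM in WT and at 7.23 and 4.98 FPKM in KO. The WT mean was 34.7 times the KO mean, a log2 difference of -4.92 (SE 0.27, adjusted p = 0.000288, limma on log2 of FPKM + 1). In 1-cell embryos it was at 16.4 and 12.2 FPKM in WT and at 2.57 and 4.55 FPKM in KO. This difference was -1.77 as deposited (SE 0.27, adjusted p = 0.00109) and -2.91 before the factor (SE 0.29, adjusted p = 0.000108). WT and KO did not overlap at either stage, and the labels of these libraries matched the gene's level. In 2-cell embryos the gene was at 1.18 FPKM and at the floor in WT and at 1.00 and 1.90 FPKM in KO; the groups overlapped near the floor (0.21, adjusted p = 0.987; 0.96 under quantile normalization, adjusted p = 0.0449), so the 2-cell libraries could not be checked in this way. A level of several FPKM in KO oocytes was not examined further, since the deleted part is not given.

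**Figure D1:**
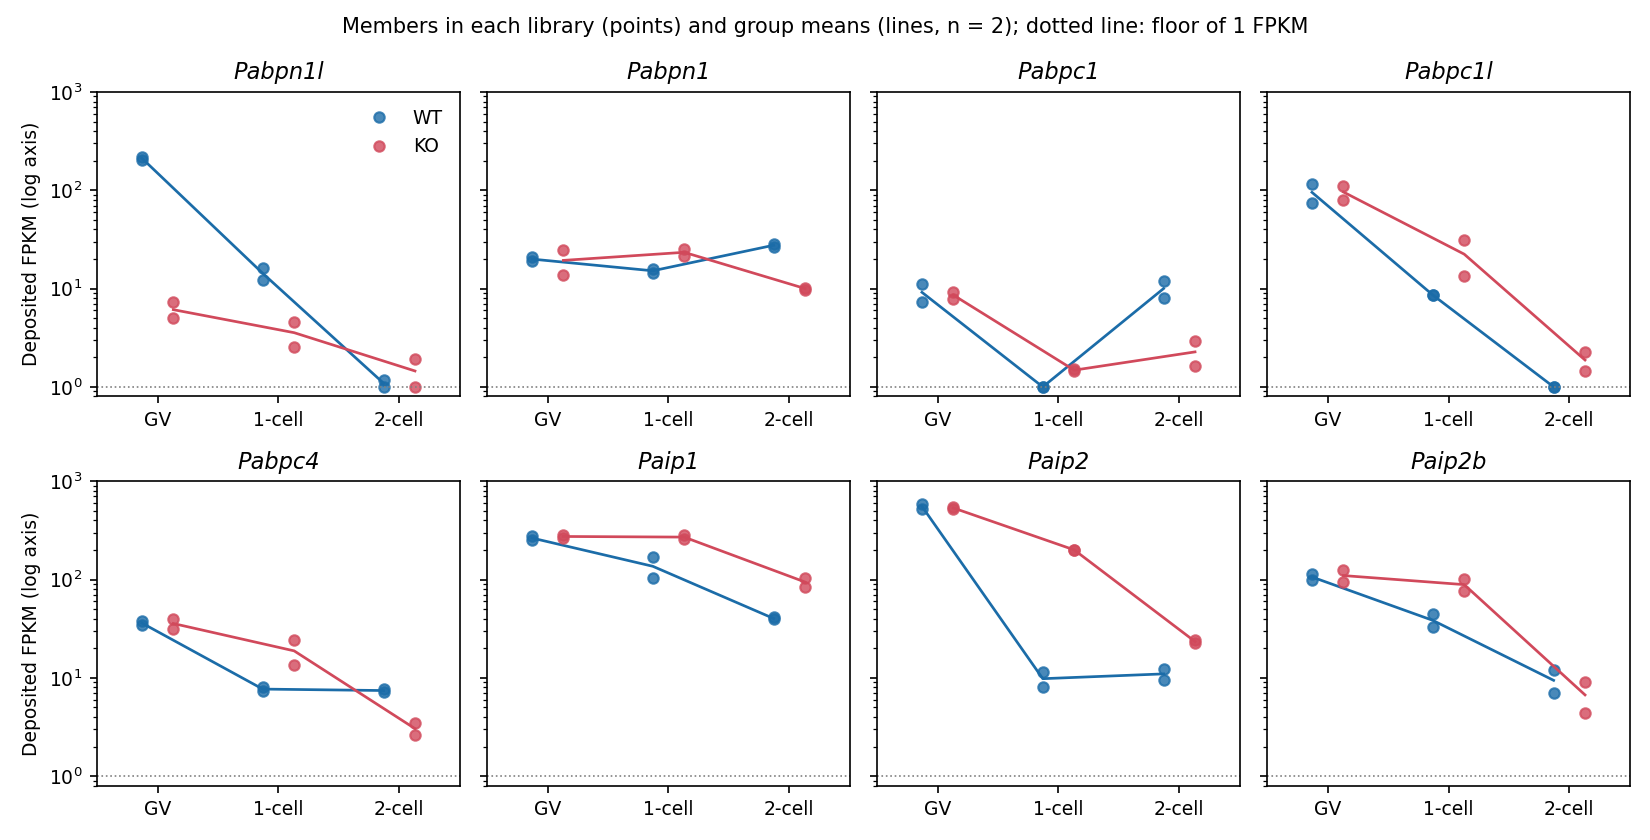
Deposited FPKM (log axis) of the 8 genes at GV, 1-cell and 2-cell; each point is a library, lines join group means (n = 2), blue is WT and red is KO, and the dotted line is the floor of 1 FPKM. Pabpn1l is 34.7 times lower in KO at GV, Paip2 separates most widely at 1-cell, and Pabpc1, Pabpn1 and Pabpc4 are lower in KO at 2-cell.

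In WT oocytes the regulators Paip2 and Paip1 were the most abundant members. Paip2 stood at 555 ± 44.6 FPKM (SD, n = 2), followed by Paip1 at 265 ± 17.7, Pabpn1l at 212 ± 11.5 and Paip2b at 106 ± 10.96 FPKM. Pabpc1l was at 95.3 ± 28.8, Pabpc4 at 36.1 ± 2.36, Pabpn1 at 20.0 ± 1.55 and Pabpc1 at 9.17 ± 2.72 FPKM. Paip2b and Pabpc1l overlapped between libraries, and every other pair of neighbours in this order was separate in both libraries. Paip2 lay above 98% of the genes in each GV library (percentiles 98.1 to 98.5). Pabpn1l was 10.5 and 10.8 times as abundant as Pabpn1 in WT oocytes, and 0.525 and 0.200 times in KO oocytes.

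Loss of Pabpn1l left the other 7 members near their WT level in oocytes. Their log2 differences lay between -0.10 and 0.05, each with an adjusted p of 1 (limma). Of the 8 members 1 was called at an adjusted p under 0.05, Pabpn1l itself, against 1.62% of all genes called in this comparison (0.0354% before the factor), and it was also the 1 member with an unadjusted p under 0.05. The 95% intervals show what differences remain possible: -0.47 to 0.37 for Paip2, -0.46 to 0.57 for Paip1, -0.63 to 0.44 for Pabpn1 and -0.80 to 0.85 for Pabpc1l. Pabpn1, the general nuclear relative, was at 21.1 and 18.9 FPKM in WT and at 13.8 and 24.9 FPKM in KO oocytes, with the KO libraries on both sides of WT.

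Between GV and the 1-cell stage, Paip2 fell further in WT than any other member. It stood at 524 and 587 FPKM in oocytes and at 11.5 and 8.12 FPKM in 1-cell embryos, 1.77% of the GV mean. The log2 change was -5.70 as deposited (SE 0.19, adjusted p = 5.74e-08) and -3.75 before the factor (SE 0.17, adjusted p = 1.55e-07). On the deposited scale 7 of 8 members fell, all but Pabpn1 (-0.37, adjusted p = 0.168), but so did 85.8% of all genes, while 0.0354% rose. Before the factor 4 members fell and 2 rose, against 27.9% and 12.3% of all genes (under quantile normalization 2690 genes fell and 3775 rose). The members that fell on both scales were Paip2, Pabpn1l (-3.81, and -1.82 before the factor), Pabpc1l (-3.29 and -1.35) and Pabpc1 (-2.32 and -0.81, adjusted p = 0.0319 before the factor). Pabpc1 was at the floor in both WT 1-cell libraries. The remaining members changed sign or call with the scale. Paip1 fell by 0.99 as deposited (adjusted p = 0.00237) and rose by 1.06 before the factor (adjusted p = 0.00209), and Pabpn1 rose by 1.62 before the factor (adjusted p = 0.000245). Pabpc4 fell by 2.09 as deposited, with -0.16 before the factor (adjusted p = 0.784). Paip2b, the relative of Paip2, fell by 1.45 as deposited, with a value of 0.58 before the factor (adjusted p = 0.166), so the PAIP2 pair differed: at the WT 1-cell stage Paip2 was 0.260 and 0.248 times as abundant as Paip2b, against 5.32 and 5.15 times in WT oocytes.

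Between the 1-cell and 2-cell stages in WT, Pabpc1 and the oocyte forms moved in opposite directions. Pabpc1 went from the floor in both libraries to 8.08 and 11.96 FPKM, with a log2 change of 2.44 (SE 0.26, adjusted p = 8.04e-05) and 3.12 before the factor (adjusted p = 0.000101). Pabpc1l went from 8.53 and 8.69 FPKM to the floor in both libraries, a change of -2.26 (SE 0.36, adjusted p = 0.000909) and -1.95 before the factor (adjusted p = 0.00606). Pabpn1l fell by 2.86 (adjusted p = 4.5e-05) and by 2.54 before the factor, while Pabpn1 rose by 0.82 (adjusted p = 0.0213) and by 1.85 before the factor (adjusted p = 0.00127). The deposited call for Pabpn1 was lost without any 1 of the 4 libraries (adjusted p from 0.0581 to 0.121). The nuclear pair, like the cytoplasmic one, moved in opposite directions on both scales. Paip1 fell by 1.70 and by 0.72 before the factor (adjusted p = 0.035). Paip2 changed by 0.16 as deposited (adjusted p = 0.713) and rose by 1.15 before the factor (adjusted p = 0.000857). In all, 2 members rose and 4 fell as deposited, against 9.45% and 29% of all genes; before the factor 4 rose and 3 fell, against 21% and 14.9% (under quantile normalization 2255 genes rose and 2972 fell). Pabpc4 was among the genes that rose before the factor (0.93, adjusted p = 0.0174), with -0.04 as deposited (adjusted p = 1), and Paip2b fell by 1.95 as deposited, with -1.05 before the factor (adjusted p = 0.0534).

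In KO 1-cell embryos, Paip2 remained at a high level. It was at 200.2 and 200.5 FPKM in KO against 11.5 and 8.12 FPKM in WT, and its percentile within a library was 98.3 and 98.0 in KO against 84.0 and 82.3 in WT. The measured level was thus 37.4% of the GV mean of the same genotype in KO 1-cell embryos and 1.77% in WT. Before the factor these shares were 77.3% and 7.29%. The KO mean was 20.4 times the WT mean as deposited and 10.2 times before the factor. The log2 difference was 4.24 (SE 0.19, adjusted p = 6.16e-06) and 3.31 before the factor (SE 0.17, adjusted p = 2.56e-06, limma). The median log2 ratio of group means, without the added 1 FPKM, was 1.05 and 0.02 over the 6227 genes above the floor. The deposited sum of the oocyte markers moved in the same direction, at 5417 to 6425 FPKM in KO against 1980 to 2696 FPKM in WT. The 5 cumulus and granulosa markers summed to 22.5 to 27.2 FPKM against 12.7 to 17.0 FPKM. These sums carry the library factor, with which the median gene over the floor was 2.08-fold higher in KO, and they were not taken before the factor. The part of the markers in the Paip2 result was not tested. Paip2 and Pabpn1l were called on both scales and under quantile normalization, Paip2 higher and Pabpn1l lower.

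The other 1-cell differences depended on the scale. As deposited, 5 of 8 members were higher in KO and 1 lower; the background was 52.7% of all genes higher and 0.0974% lower. Before the factor 1 was higher and 1 lower, against 8.05% and 2.89%. Under quantile normalization it was again 1 and 1, with 1445 of all genes higher and 1856 lower. The lower member was Pabpn1l each time, the deleted gene, so that count is no result about the other members. Paip1, the activator, was at 169 and 104 FPKM in WT and at 283 and 258 FPKM in KO 1-cell embryos. Its difference was 1.02 as deposited (SE 0.23, adjusted p = 0.00543) and -0.00 before the factor (95% interval -0.48 to 0.47). Paip2b was at 44.2 and 32.7 FPKM in WT and at 76.1 and 101 FPKM in KO, 1.19 as deposited (SE 0.35, adjusted p = 0.0181) and 0.18 before the factor (95% interval -0.48 to 0.84). The deposited values of both genes were separate between the groups, and the difference of each was near the median of 1.05 of the 6227 genes over the floor. That median is of log2 ratios of group means without the added 1 FPKM. On the scale of the fit, over all 11298 genes, those at the floor included, the median was 0.57. The 2 medians thus differ in measure as well as in genes. Pabpc4 had 1.13 as deposited (SE 0.25, adjusted p = 0.00562) and 0.20 before the factor (adjusted p = 0.966). Pabpc1l was at 8.53 and 8.69 FPKM in WT and at 13.5 and 31.3 FPKM in KO, 1.17 as deposited (SE 0.36, adjusted p = 0.0236) and 0.22 before the factor (adjusted p = 1). Neither of these cytoplasmic forms was called once the factor was removed. The KO 1-cell libraries of Pabpc1l were far apart, and without the second of them its deposited difference was 0.59 (adjusted p = 0.181); without either WT library its adjusted p was 0.0810 or 0.0932. The deposited Paip2b call was also lost without the second WT (adjusted p = 0.119) or the second KO library (adjusted p = 0.123). Pabpn1 had 0.59 as deposited (adjusted p = 0.0636) and -0.40 before the factor (adjusted p = 0.457), with opposite signs; its deposited difference was called when genes with a mean under 5 FPKM were left out (adjusted p = 0.0325). Pabpc1 was at 1.45 and 1.51 FPKM in KO and at the floor in WT, and before the factor all 4 libraries were at or under the shared floor.

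**Figure D2:**
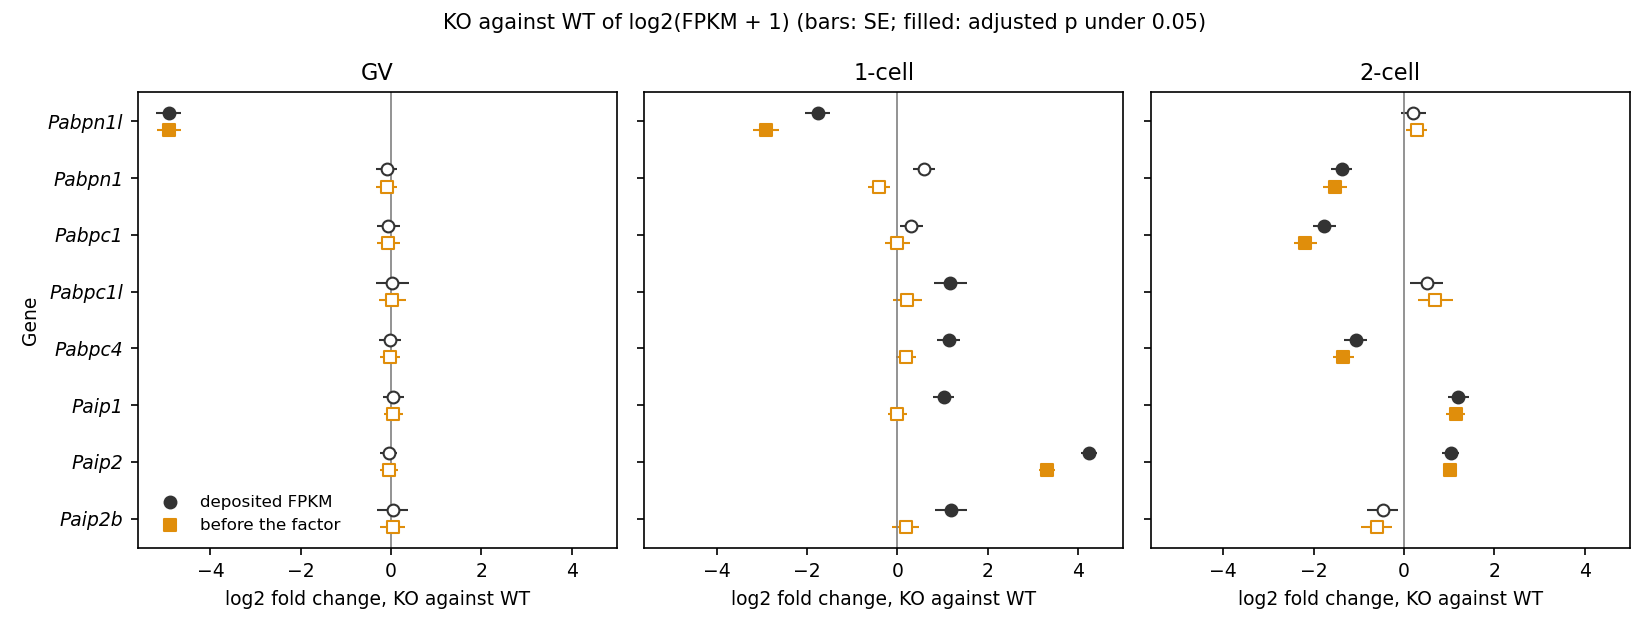
Log2 difference of KO from WT (x axis) for each gene (y axis) at GV, 1-cell and 2-cell, on log2 of FPKM + 1 with bars of 1 SE; circles are deposited FPKM, squares are values before the library factor, and filled symbols passed an adjusted p of 0.05 (limma). At 1-cell Paip2 (4.24 and 3.31) and Pabpn1l (-1.77 and -2.91) are filled on both scales, and at 2-cell the same 5 genes are filled on both.

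In 2-cell embryos transcripts of 3 poly(A)-binding proteins that are not specific to oocytes, Pabpc1, Pabpn1 and Pabpc4, were lower in KO. Those of the regulators Paip1 and Paip2 were higher. The call was the same on both scales for all 8 members, and Pabpn1l, Pabpc1l and Paip2b were not called on either. As deposited 12% of all genes were called lower and 7.56% higher, and before the factor 18.7% and 11.1%; under quantile normalization the balance over all genes turned, with 2705 genes higher and 2169 lower.

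Pabpc1, the main cytoplasmic form of most cells, was at 8.08 and 11.96 FPKM in WT and at 2.91 and 1.63 FPKM in KO 2-cell embryos. The lowest WT library was above both KO libraries, and the WT mean was 4.41 times the KO mean. The log2 difference was -1.76 (SE 0.26, adjusted p = 0.00132) and -2.18 before the factor (SE 0.26, adjusted p = 0.000725). Reads of Pabpc1 may be shared with copies of the gene elsewhere in the genome, and how the counting divided them is not given in the sources used here. Pabpn1 was at 26.5 and 28.7 FPKM in WT and at 10.3 and 9.78 FPKM in KO. Its groups were apart by far more than the spread within them, with a WT mean 2.75 times the KO mean; the difference was -1.38 (SE 0.24, adjusted p = 0.00316) and -1.52 before the factor (SE 0.26, adjusted p = 0.00407). Within its library Pabpn1 stood at percentiles 97.5 and 97.3 in WT and 91.1 and 90.9 in KO, and Pabpc1 at 89.7 and 92.1 in WT and 76.0 and 67.3 in KO. Pabpc4, a cytoplasmic form that acts beside PABPC1, was at 7.71 and 7.15 FPKM in WT and at 2.59 and 3.49 FPKM in KO. These groups did not overlap, and the difference was -1.07 (SE 0.25, adjusted p = 0.0164) and -1.34 before the factor (SE 0.23, adjusted p = 0.00425). The deposited Pabpc4 call was lost without the first WT library (adjusted p = 0.108), the second WT library (adjusted p = 0.0909) or the first KO library (adjusted p = 0.119).

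Paip1 was at 41.1 and 39.2 FPKM in WT and at 84.7 and 104 FPKM in KO 2-cell embryos. Both KO libraries were above both WT libraries, and the difference was 1.20 (SE 0.23, adjusted p = 0.00507) and 1.15 before the factor (SE 0.21, adjusted p = 0.0057). Paip2 was at 9.58 and 12.4 FPKM in WT and at 22.7 and 24.1 FPKM in KO, a difference of 1.04 (SE 0.19, adjusted p = 0.00394) and 1.02 before the factor (SE 0.15, adjusted p = 0.002). Again the groups were separate, but the difference was smaller than at 1-cell: the KO to WT fold of Paip2 was 20.4 at 1-cell and 2.13 at 2-cell. Paip2b was at 6.94 and 11.9 FPKM in WT and at 9.07 and 4.34 FPKM in KO, groups that overlapped (-0.47, 95% interval -1.25 to 0.32). Pabpc1l, at the floor in WT, was at 1.47 and 2.29 FPKM in KO; it was not called as deposited (0.51, adjusted p = 0.513) or before the factor (0.70, adjusted p = 0.254) and was higher in KO under quantile normalization (1.74, adjusted p = 0.0015). As deposited, summed oocyte markers moved in the same direction as Paip1 and Paip2 at this stage, at 433 to 434 FPKM in WT and 1085 to 1177 FPKM in KO. Their part in these results was not tested.

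Ratios within a library do not change with its factor, except where a value is at the floor. Among the summed FPKM of Pabpc1l, Pabpc4 and Pabpc1, Pabpc1l made up 62.2% to 72.0% in the 4 GV libraries and 47.6% to 54.9% in the 4 1-cell libraries, with WT and KO overlapping at both stages. In 2-cell embryos it made up at most 5.96% and 4.97% in WT, where it was at the floor, and 21.0% and 30.8% in KO. The sum itself was lower in KO, at 6.97 and 7.41 FPKM against 16.8 and 20.1 FPKM in WT. Pabpc1l was at 1.47 and 2.29 FPKM in these KO libraries and was not called as deposited or before the factor. Pabpc1 made up 4.51% to 9.20% at GV, and at 2-cell 48.1% and 59.5% in WT and 41.8% and 22.0% in KO. The 2-cell groups were separate for both shares, while the share of Pabpc4 overlapped, at 45.9% and 35.6% in WT and 37.2% and 47.1% in KO. With 2 libraries a group no exact permutation test of these shares could pass 0.05, and none was run.

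**Figure D3:**
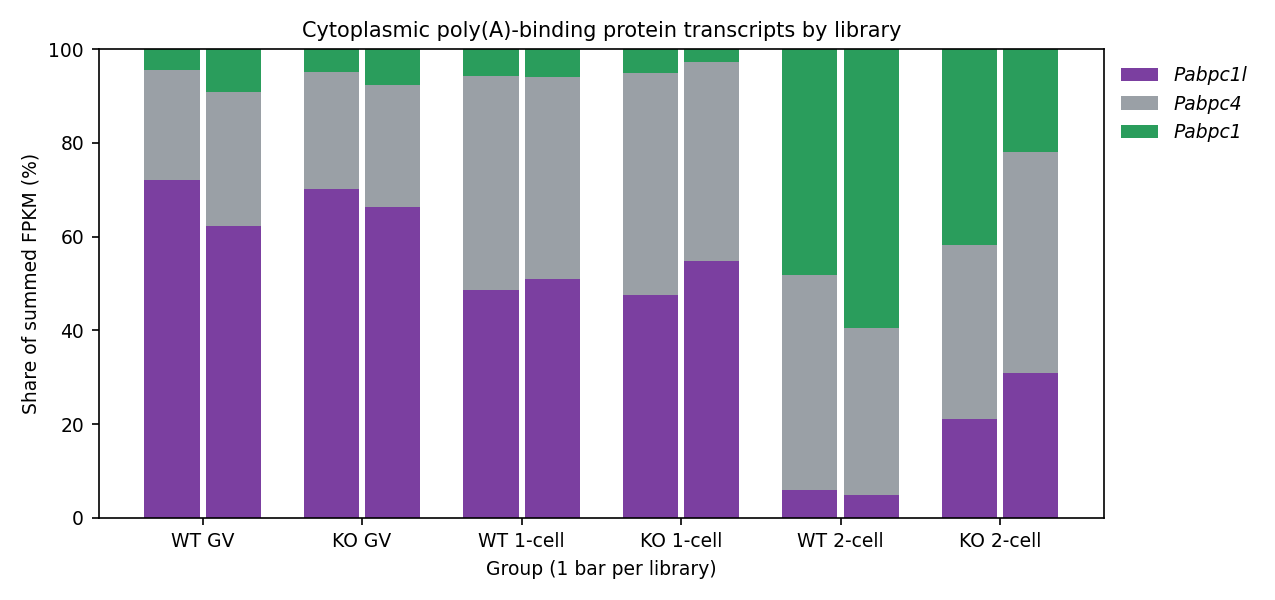
Share of the summed FPKM of the 3 cytoplasmic poly(A)-binding protein genes (y axis, percent) in each library (1 bar each, grouped by genotype and stage). Pabpc1l (purple) is the largest share in every GV library, Pabpc1 (green) reaches 48.1% and 59.5% in WT 2-cell embryos, and Pabpc1l makes up 21.0% and 30.8% of the sum in KO 2-cell embryos. The sums at 2-cell are 16.8 and 20.1 FPKM in WT and 6.97 and 7.41 FPKM in KO.

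The balance of the repressor Paip2 to the activator Paip1 was set apart by genotype at the 1-cell stage. Paip2 was 1.83 to 2.12 times as abundant as Paip1 in the 4 GV libraries. In 1-cell embryos the ratio was 0.0678 and 0.0784 in WT and 0.708 and 0.777 in KO, with a wide gap between the groups. In 2-cell embryos it was 0.233 and 0.315 in WT and 0.268 and 0.231 in KO, and the groups overlapped. The ratio of Paip2 to Paip2b was likewise 0.260 and 0.248 in WT and 2.63 and 1.98 in KO 1-cell embryos; at 2-cell it was 1.38 and 1.04 in WT and 2.51 and 5.55 in KO. Paip1 itself kept a high rank throughout, above 95.9% to 99.3% of the genes in each of the 12 libraries.

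**Figure D4:**
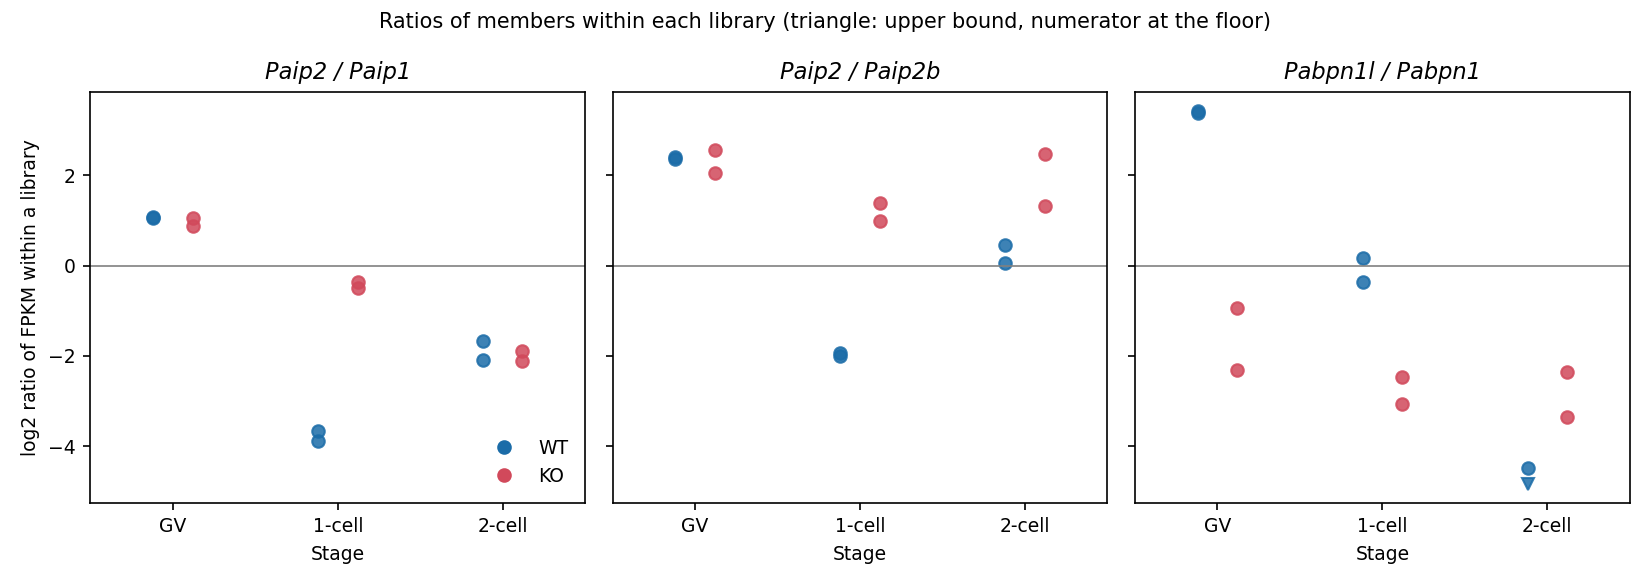
Log2 ratios within each library (y axis) of Paip2 to Paip1, Paip2 to Paip2b and Pabpn1l to Pabpn1 at each stage; each point is a library and the triangle is an upper bound because Pabpn1l was at the floor. Both Paip2 ratios are low in WT 1-cell embryos (0.0678 and 0.0784 for Paip1), while Pabpn1l to Pabpn1 separates WT from KO already at GV.

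Other genes of the same machinery were read from 4 lists. At GV limma called 0 of 12 eIF4F and termination partners and 0 of 22 other proteins that bind cytoplasmic poly(A)-binding protein. It also called 0 of 20 nuclear poly(A) tail factors and 0 of 20 deadenylases and their adaptors. An unadjusted p under 0.05 was found for 0, 0, 2 and 1 of them, with no share over all genes to set beside it. Over all genes 1.62% were called at GV and 0.0354% before the factor, so 0 calls in lists of this size say little. At 1-cell the deposited scale called 9, 14, 14 and 15 of them, each higher in KO, against 52.7% higher over all genes; before the factor 3, 3, 4 and 1 were higher and the first 3 lists had 1 lower each, against 8.05% higher and 2.89% lower over all genes. Among the genes called on both scales at 1-cell, Fip1l1, a subunit of the cleavage and polyadenylation factor, was at 11.4 ± 1.09 FPKM (SD, n = 2) in WT and 62.2 ± 26.3 FPKM in KO (2.28, and 1.33 before the factor). Gspt2, a termination factor relative, was at 10.0 ± 1.36 and 37.2 ± 9.93 FPKM (1.78 and 0.83). Both genes were called higher in KO before the factor as well. Tob1, a deadenylation adaptor, was at 6.23 ± 0.447 FPKM in KO, with WT at the floor. Btg4, the adaptor that works with PABPN1L, was at 889 ± 276 FPKM in WT and 2192 ± 128 FPKM in KO 1-cell embryos, 1.34 as deposited (adjusted p = 0.00195) and 0.31 before the factor (adjusted p = 0.676), so its call rested on the deposited scale.

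At 2-cell 8 of the 20 nuclear factors were called, each lower in KO, and before the factor 9 were lower and 1 higher; over all genes 12% were lower and 7.56% higher, and before the factor 18.7% and 11.1%, and these shares are the background of every list at this stage. The median difference of this list was -0.23 and -0.34 beside 0 over all genes. All genes include those at the floor, 5121 to 6561 in each 2-cell library. A gene at the floor in all 4 libraries has a difference of 0 and cannot be called. Such genes pull the median over all genes toward 0 and lower the shares called. The list was not set against genes above the floor alone. Nudt21, a subunit of cleavage factor I, was at 8.83 ± 0.303 FPKM in WT and 1.65 ± 0.149 FPKM in KO (-1.89, adjusted p = 0.000171). Cstf3 and Cstf1, subunits of the cleavage stimulation factor, were at 6.40 ± 1.53 and 6.08 ± 0.760 FPKM in WT and at the floor in both KO libraries. All 3 act in cleavage and polyadenylation at the end of a new transcript. Among deadenylases and adaptors 5 of 20 were higher and 1 lower (before the factor 5 and 7): Btg4 was at 228 ± 40.1 FPKM in WT and 631 ± 27.3 FPKM in KO (1.47, adjusted p = 0.00202), and Cnot7, a catalytic deadenylase subunit, at 19.7 ± 4.23 and 48.8 ± 4.10 FPKM (1.28, adjusted p = 0.00801). Both were higher before the factor too. Cnot8, another catalytic subunit, was lower before the factor (-0.97, adjusted p = 0.0313) and not called as deposited (-0.85, adjusted p = 0.123). Of the 22 other binding partners 3 were higher and 4 lower (before the factor 4 and 6). Dazl, a germ-cell translational regulator, was at 9.12 ± 0.626 FPKM in WT and 66.4 ± 16.3 FPKM in KO (2.72, adjusted p = 5.27e-05). Larp1b (-1.58, adjusted p = 0.00906) and Atxn2l (-1.48, adjusted p = 0.0123), from the same list of binding partners, were lower. Of the 12 eIF4F and termination partners, 1 was called lower as deposited and 3 before the factor. The deposited call was Eif4g1: this gene, the scaffold that cytoplasmic poly(A)-binding protein contacts, was at 3.11 ± 0.602 FPKM in WT and 1.26 ± 0.1295 FPKM in KO (-0.86, adjusted p = 0.00560). Eif4e, the cap-binding subunit, was at 31.5 ± 1.33 and 33.8 ± 3.37 FPKM and was not called (0.09, adjusted p = 1).

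The change between stages differed between KO and WT for several members, by the interaction term of the same fit. From GV to 1-cell 4 of 8 members were called, against 39.6% of all genes, and before the factor 2 of 8, Paip2 and Pabpn1l, against 4.86%. From 1-cell to 2-cell 6 of 8 were called, against 35.9%, and before the factor 5 of 8, against 21.7%. Each of these counts includes Pabpn1l, the deleted gene, whose calls are no result about the other members. As deposited, calls over all genes ran mostly 1 way, with 4374 higher and 97 lower from GV to 1-cell. They were 27 higher and 4028 lower from 1-cell to 2-cell. Before the factor, 456 were higher and 93 lower in the first interval, and 668 higher and 1785 lower in the second. Pabpn1l, Pabpc1, Pabpc4 and Paip2 were called on both scales in this second interval. The 1-cell to 2-cell change of Pabpc1 in KO minus that in WT was -2.07 as deposited (adjusted p = 0.00287) and -2.18 before the factor (adjusted p = 0.00569). Before the factor, every 1-cell value of Pabpc1 lay under the shared floor and was set to it. That -2.18 therefore repeats the 2-cell difference of KO from WT and does not measure the change from 1-cell.

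The genes whose pattern over the 12 libraries was most like a member's were found by Pearson's r of log2(FPKM + 1) among 5537 genes. The libraries share their stage and factor, so these r describe only. The deposited values given for these genes illustrate the pattern by which they were chosen and are no further result. Paip2 was closest to Rpl32 (r = 0.995), a ribosomal protein gene with copies elsewhere in the genome that may share its reads, and Atp5c1 (r = 0.994), which encodes a subunit of ATP synthase. Like Paip2, Rpl32 was lower in WT 1-cell embryos (23.6 FPKM) than in KO (249 FPKM), and Atp5c1 was at 14.2 FPKM in WT and 99.96 FPKM in KO. Pabpc1 was closest to Gabarap (r = 0.986) and Dppa4 (r = 0.977): Dppa4 was at 1 FPKM in WT 1-cell embryos, at 17.8 FPKM in WT 2-cell and at 1.49 FPKM in KO 2-cell embryos. Pabpc1l was nearest to Strada and Dedd (r = 0.997 for both), Pabpc4 to Mcm6 and Pebp1 (0.996 for both), Paip1 to Pfdn4 and Trappc2 (0.995 for both), and Paip2b to Luc7l3 and Taf13 (0.994 for both). No gene came as close to Pabpn1l or Pabpn1. For Pabpn1l the nearest were Hipk2 (r = 0.806) and Gm9766 (r = 0.805), and for Pabpn1 they were Mad2l1bp (r = 0.841) and Rnf10 (r = 0.783).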

How the data were processed

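Smart-seq2 libraries of GV oocytes and of 1-cell and 2-cell embryos, 2 for each of 6 groups, were compared. The authors deposited 1 table of FPKM values; the submitters' processing notes name build mm9, Cufflinks 2.2.1 and TopHat2 2.1.1, and the floor and the factors were read from the values. The table held 11298 complete genes, from 0610007C21Rik to Zc3h14, and 1 incomplete entry, which was left out; no ERCC entry was found (0), and genes later in the alphabet were not analysed here. Replicate libraries differed by a median of 0.19 to 0.43 on the log2 scale, so none counted as a copy.

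All 12 libraries entered 1 fit of log2(FPKM + 1) in limma 3.58.1 (R 4.3.3, trend, two-sided), with 1 mean per group and Benjamini-Hochberg adjustment over all 11298 genes in each comparison; an adjusted p under 0.05 was called. A fold on this scale understates changes of low genes. For values before the factor, each comparison had its own fit of the 12 libraries, with the highest floor among the libraries compared applied to all of them, so SEs and counts of calls differ from the deposited fit also through the floor and the spread. Quantile normalization, a pseudocount of 0.1, a minimum mean of 5 FPKM, a replicate block and leaving out each library were the other settings.

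The members and lists were chosen with earlier results of these data known. Named list genes were the 3 called with the largest change in a KO comparison and those of at least 100 FPKM in WT oocytes, and a part of these is described; no p was adjusted over a list. The 9 further poly(A)-binding protein symbols searched were not in the table (0 found). Of 7 sperm markers 2, and of 8 blood and immune markers 5, were in the table, with sums of 57.7 to 71.8 and 18.6 to 20.1 FPKM at GV and of 2 to 2.74 and 5.16 to 7.02 FPKM at 2-cell. Promoter windows came from RefSeq (GRCm38.p6), where 6 of 8 members matched, and transcript ends from GENCODE M21 (GRCm38), where 8 of 8 matched.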

Additional observations from a re-analysis of the deposited data

Results flagged for a closer look

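The change between stages differed between KO and WT for the following members, by the interaction term of the limma fit (KO change minus WT change, log2). From GV to 1-cell the difference was 4.29 for Paip2 (adjusted p = 0.00017; 3.36 before the factor, adjusted p = 8.63e-05) and 3.16 for Pabpn1l (adjusted p = 0.00116; 2.02 before the factor, adjusted p = 0.0181), whose KO level was already low at GV. It was 1.16 for Pabpc4 (adjusted p = 0.0329) and 0.97 for Paip1 (adjusted p = 0.0405), and before the factor 0.22 and -0.05, each with an adjusted p of 1. The deposited Pabpc4 call was lost in 6 of 8 fits without 1 library (all but those without the first KO GV or the first KO 1-cell library; adjusted p from 0.0557 to 0.102), and the Paip1 call in 7 of 8 (all but that without the first WT 1-cell library; adjusted p from 0.0721 to 0.101).

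From 1-cell to 2-cell the difference was -3.20 for Paip2 (adjusted p = 5.94e-05; -2.29 before the factor), -2.20 for Pabpc4 (adjusted p = 0.00191; -1.53 before the factor, adjusted p = 0.016) and -2.07 for Pabpc1 (adjusted p = 0.00287; -2.18 before the factor). It was -1.96 for Pabpn1 (adjusted p = 0.00245; -1.12 before the factor, adjusted p = 0.0779), -1.65 for Paip2b (adjusted p = 0.0286; -0.78 before the factor, adjusted p = 0.397) and 1.97 for Pabpn1l (adjusted p = 0.00478; 2.94 before the factor). The Paip2b call was lost without the second library of WT 1-cell (adjusted p = 0.103), KO 1-cell (0.1003), WT 2-cell (0.132) or KO 2-cell embryos (0.0952). Paip1 was called before the factor (1.15, adjusted p = 0.0343), with 0.18 as deposited (adjusted p = 0.77). The Pabpc1 value before the factor repeats its 2-cell difference of KO from WT, because its 1-cell values were all set to the shared floor. Deposited interaction calls over all genes ran mostly 1 way: 4374 of 4471 were higher from GV to 1-cell, and 4028 of 4055 were lower from 1-cell to 2-cell.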

How the results depend on the processing

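Over the planned settings, 472 differences of members kept their direction and their side of 0.05. Without a change of sign, 44 lost the call and 12 gained it. A further 40 changed sign, some of them with a call lost or gained as well. The pseudocount of 0.1 changed 0 calls of members. The 2-cell calls of Pabpn1, Pabpc1, Paip1 and Paip2 and the 1-cell calls of Paip2 and Pabpn1l held in every setting and without each library. Leaving out 1 library on the scale before the factor was chosen after seeing the data; there the 5 calls at 2-cell, and those of Paip2 and Pabpn1l at 1-cell, held in 4 of 4 fits, and 2 calls were gained at 2-cell without the first KO library, Pabpn1l (0.69, adjusted p = 0.00492) and Paip2b (-1.07, adjusted p = 0.0499).

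Before the factor, members called went from 6 to 2 for KO against WT at 1-cell and from 4 to 2 for the GV to 1-cell interaction. The genes called were 4 (183 as deposited) for KO against WT at GV, 1236 (5961) at 1-cell and 3372 (2211) at 2-cell. The oocyte factor is 1 and the GV differences were the same on both scales, so the GV count changed through the spread that all 12 libraries share. They were 4537 (9696) for WT 1-cell against GV, 549 (4471) for the GV to 1-cell and 2453 (4055) for the 1-cell to 2-cell interaction. Signs changed for KO against WT at 1-cell in Pabpn1 (-0.40) and Paip1 (-0.0017), for WT 1-cell against GV in Pabpn1 (1.62), Paip1 (1.06) and Paip2b (0.58), and for WT 2-cell against 1-cell in Pabpc4 (0.93). They also changed for the GV to 1-cell interaction in Pabpn1 (-0.31) and Paip1 (-0.0535) and for the 1-cell to 2-cell interaction in Pabpc1l (0.48).

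Under quantile normalization 2 members were called for KO against WT at 1-cell and 1 for the GV to 1-cell interaction. The genes called were 2 at GV, 3301 at 1-cell and 4874 at 2-cell for KO against WT, and 979 for the GV to 1-cell interaction. Signs changed at GV in Pabpc4 (0.0054), at 1-cell in Pabpn1 (-0.54), Paip1 (-0.31) and Paip2b (-0.0837), and for WT 1-cell against GV in Pabpn1 (1.93), Pabpc4 (0.31), Paip1 (1.60) and Paip2b (1.11). Pabpc4 had 0.82 for WT 2-cell against 1-cell. The interactions were -0.51 for Pabpn1, -0.32 for Paip1 and -0.0937 for Paip2b from GV to 1-cell, and 1.67 for Pabpc1l from 1-cell to 2-cell. With a mean of at least 5 FPKM, which leaves 5537 genes, 2 were called at GV and 5486 for WT 1-cell against GV. The cause of these changes was not tested.

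Without 1 library each, the genes called ranged from 521 to 793 at GV, from 3433 to 6695 at 1-cell and from 1359 to 1678 at 2-cell for KO against WT. They ranged from 1889 to 6024 for the GV to 1-cell interaction (members called 2 to 4) and from 2391 to 5607 for the 1-cell to 2-cell interaction. The uncalled GV differences ranged from -0.50 to 0.31 for Pabpn1, -0.34 to 0.21 for Pabpc1, -0.28 to 0.33 for Pabpc1l and -0.18 to 0.14 for Pabpc4. They ranged from -0.0163 to 0.12 for Paip1, -0.13 to 0.0305 for Paip2 and -0.18 to 0.25 for Paip2b. Pabpn1l at 2-cell ranged from -0.0607 to 0.47, and before the factor from -0.11 to 0.69. Before the factor at 1-cell, Pabpc1l ranged from -0.20 to 0.64, Pabpc4 from -0.0511 to 0.44 and Paip1 from -0.24 to 0.24. For WT 2-cell against 1-cell, Pabpc4 ranged from -0.0981 to 0.0120 and Paip2 from -0.0702 to 0.38, and the 1-cell to 2-cell interaction of Paip1 from -0.17 to 0.53. A lone library left in a group was assumed to vary like the other groups.

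With the replicate number as a block, 1 member call was lost, the GV to 1-cell interaction of Paip1 (0.97, adjusted p = 0.0587), and no other. Deviations of libraries of the same number correlated between groups from -0.61 to 0.38 over 3769 genes, so the numbers were not taken to pair the libraries. Read depth is unknown, and a level under the floor, which before the factor lay between 1.81 and 8.61 FPKM in embryos, cannot be resolved.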
